A study of Mus musculus with 23 samples.

Results

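The genes described here encode the collagens, laminins and nidogens of the extracellular matrix, fibronectin (Fn1), the hyaluronan synthase Has2, the collagen-binding protein Sparc, and the integrins through which cells hold on to that matrix. They were chosen by gene symbol: every row named Col, Lama, Lamb, Lamc, Itga or Itgb in the usual style of these families, plus Fn1, Has2, Sparc, Nid1 and Nid2. Of 53607 gene rows, 88 matched, and the 77 that reached 10 counts in at least 1 of the 23 libraries are the members. The 11 others never reached that level, among them Col3a1, a fibrillar collagen of connective tissue, with at most 3 counts. By role there were 20 members of the basement membrane, 10 fibrillar collagens, 21 other collagens, 2 in the group of fibronectin and hyaluronan, and 24 rows named as integrins. Of those 24, Itgb3bp is a centromere protein that carries an integrin's symbol, and it was called in none of the comparisons below. A filter on low counts left 76 members to test; the collagen Col14a1 did not pass it.

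Basement membranes are thin sheets in which a laminin network and a collagen IV network lie on each other, joined by nidogens and other binding proteins. A laminin is a trimer of an alpha, a beta and a gamma chain, and the trimer of Lama1, Lamb1 and Lamc1 is the form made around the early epiblast. Integrins are pairs of an alpha and a beta chain, and the pair decides the ligand: alpha6 with beta1 binds laminin, alpha5 with beta1 binds fibronectin, and alphav with beta3 binds vitronectin, fibronectin and other proteins with an RGD motif. In the mouse blastocyst the primitive endoderm secretes much of the laminin and collagen IV on which the epiblast polarises, and embryonic stem cells make part of this set themselves. Downstream of FGF receptors, RAS proteins pass the signal on toward ERK. ERF, a repressor of the ETS family, leaves the nucleus when ERK phosphorylates it.

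The libraries came from a mouse embryonic stem cell background named Raslox/lox, and every group carried H-Ras-/-, N-Ras-/- and Ubiq-CreERT2, a ubiquitously expressed Cre recombinase that tamoxifen activates. RAS-deleted libraries had received 4-hydroxytamoxifen for 6 days and the others had not, and effects of the drug and of the deletion cannot be told apart. Each line was ERF wild type or labelled ERF knockout, and each was sampled in 2iL or in FA. The medium 2iL is N2B27 with the MEK inhibitor PD0325901, the GSK3 inhibitor CHIR99021 and LIF, on gelatin. The medium FA is N2B27 with 12 ng/ml FGF2 and 20 ng/ml Activin A for 48 hours, which turns the cells toward epiblast-like cells. Cells for FA were passaged on poly-L-ornithine and laminin and then plated on fibronectin, so the coating of the plate and the medium cannot be told apart, which bears on every comparison of media below. The 8 groups had 3 libraries each, except that the reference line, which is ERF wild type and has RAS, had 2 in FA. Whether replicates were separate cultures is not given in the sources used here, so the p-values measure the spread between these libraries.

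Total counts ran from 16221640 to 29874207 per library, and the 77 members took 0.364 to 0.717% of them. The 22 pairs of replicates each differed by more than sampling noise. Erf RNA was present in all libraries at 49.3 to 172 CPM (counts scaled to the adjusted library size), with a mean of 77.6 in the reference line in 2iL and 116 in the line labelled ERF knockout; the labels do not give the lesion, so this level checks nothing and genotypes are used as labelled. Hras and Nras were also read, at 12.0 to 25.9 and 5.32 to 52.3 CPM. The stem cell markers Pou5f1 and Sox2 were present in all groups. A list of 7 stem cell markers held these 2 and the naive markers Nanog, Esrrb, Zfp42, Klf4 and Tfcp2l1. Its sum was 634 to 673 CPM in reference cells in FA and 1633 to 2327 in RAS-deleted ERF wild type cells in FA. Pou5f1 and Sox2 had means of 383 and 82.9 CPM in the first group and 435 and 257 CPM in the second. Each naive marker was lower in the first group, such as Nanog at 96.8 against 457 CPM and Esrrb at 27.1 against 193 CPM. The summed level of 4 epiblast markers was 548 to 619 CPM and 102 to 291 CPM in those groups; Fgf5, Dnmt3b and Pou3f1 were lower in the second group, while Otx2 had a mean of 25.7 CPM in the first and 52.1 CPM in the second. In reference cells 6 trophoblast markers summed to 111 to 130 CPM in 2iL and 19.5 to 26.1 CPM in FA. With ERF knocked out in 2iL they summed to 40.3 to 49.1 CPM. In FA the sum was 57.3 to 70.7 CPM in RAS-deleted ERF wild type cells and 13.1 to 13.2 CPM without RAS and ERF. Gata3, Tfap2c and Elf5 were higher in RAS-deleted ERF wild type than in reference cells in FA, and Cdx2, Hand1 and Krt7 lower. The summed level of 7 fibroblast markers was 12.5 to 19.9 CPM in 2iL, most of it Pdgfrb, and 3.16 to 9.38 CPM in FA. Lum and Postn were at 0 counts in all 4 groups in FA, where Dcn was read at group means of up to 0.966 CPM, and 3 blood markers summed to at most 0.326 CPM in any library. Replicate 1 of each of the 4 ERF wild type groups had raised expression across chromosome 8, by a median of 0.305 to 0.349 on the log2 scale over 582 genes, and Col4a1, Col4a2 and Itgb1 lie on that chromosome. Where a call given here was lost without these 4 libraries, the value without them stands beside it. That setting leaves the reference line in FA with 1 library, as does leaving out either of its libraries alone. A call lost there may reflect the smaller group.

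Levels between genes were compared in the deposited TPM, which account for transcript length. In reference cells in 2iL fibronectin stood highest at 285 ± 14.8 TPM (SD, n = 3), followed by the laminin gamma1 chain Lamc1 at 97.2 ± 4.62, the nidogens Nid2 at 91.3 ± 9.08 and Nid1 at 85.8 ± 2.2, and Sparc at 82.1 ± 2.05. Their most abundant integrin chains were Itga6 at 58.2 ± 2.03 and Itgb1 at 33.6 ± 10.4 TPM, the pair that binds laminin. In FA the order differed: Col18a1, the basement membrane collagen from which endostatin is cut, stood highest at 126 ± 14.6 TPM (SD, n = 2) and fibronectin at 67.6 ± 6.81. Between 34 and 39 of the 77 members reached 1 TPM in a group, and 15 to 19 reached 10 TPM, so the rest of the set was present at low levels only.

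Col4a1 and Col4a2 encode the chains of the main collagen IV trimer and sit head to head on chromosome 8 of mm10, so their promoter windows overlap. The windows are shown for that overlap. They are from RefSeq on GRCm38.p6 and run from 250 bases before the start to 50 after it. Each is read 5′ to 3′ on its own strand, with the 78 bases that both share in capitals.
Col4a1, chr8:11312777-11313076, minus strand: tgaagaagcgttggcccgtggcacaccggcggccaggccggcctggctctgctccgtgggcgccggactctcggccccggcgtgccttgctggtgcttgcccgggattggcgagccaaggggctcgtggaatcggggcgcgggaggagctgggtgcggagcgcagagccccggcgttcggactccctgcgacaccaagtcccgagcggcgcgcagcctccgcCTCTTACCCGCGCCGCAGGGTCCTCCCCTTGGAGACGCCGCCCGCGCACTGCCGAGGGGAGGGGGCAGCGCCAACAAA
Col4a2, chr8:11312555-11312854, plus strand: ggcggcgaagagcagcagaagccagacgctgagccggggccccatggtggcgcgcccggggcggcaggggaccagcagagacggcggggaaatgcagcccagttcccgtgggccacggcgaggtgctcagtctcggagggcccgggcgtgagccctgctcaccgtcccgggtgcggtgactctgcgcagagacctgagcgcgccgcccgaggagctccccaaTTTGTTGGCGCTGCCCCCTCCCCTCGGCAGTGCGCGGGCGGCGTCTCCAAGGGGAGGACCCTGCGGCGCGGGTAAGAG
The windows of 4 further members that the results turn on, the laminin chain Lamb1, Nid1 and the collagens Col6a5 and Col9a2, are shown with GGAA or its reverse complement TTCC in capitals, the core letters that ETS factors such as ERF bind.
Lamb1, chr12:31265043-31265342, plus strand: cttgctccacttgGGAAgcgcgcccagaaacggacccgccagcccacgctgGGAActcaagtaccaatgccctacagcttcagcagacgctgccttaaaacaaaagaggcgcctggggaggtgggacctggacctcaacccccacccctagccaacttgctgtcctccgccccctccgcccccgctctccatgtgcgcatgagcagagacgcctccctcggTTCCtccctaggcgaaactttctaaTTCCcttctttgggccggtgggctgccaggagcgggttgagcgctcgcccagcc
Nid1, chr13:13437352-13437651, plus strand: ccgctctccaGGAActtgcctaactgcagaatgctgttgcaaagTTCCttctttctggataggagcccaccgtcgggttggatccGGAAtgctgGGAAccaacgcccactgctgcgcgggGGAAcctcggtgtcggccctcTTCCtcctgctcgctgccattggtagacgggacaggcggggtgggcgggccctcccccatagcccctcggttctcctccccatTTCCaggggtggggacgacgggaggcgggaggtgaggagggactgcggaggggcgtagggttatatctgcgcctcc
Col6a5, chr9:105960594-105960893, minus strand: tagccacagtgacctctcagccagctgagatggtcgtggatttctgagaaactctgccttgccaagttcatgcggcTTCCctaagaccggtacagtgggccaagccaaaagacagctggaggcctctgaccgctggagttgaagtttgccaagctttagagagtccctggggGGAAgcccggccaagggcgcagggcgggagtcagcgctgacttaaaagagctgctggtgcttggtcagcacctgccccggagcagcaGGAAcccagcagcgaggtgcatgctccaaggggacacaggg
Col9a2, chr4:121039316-121039615, plus strand: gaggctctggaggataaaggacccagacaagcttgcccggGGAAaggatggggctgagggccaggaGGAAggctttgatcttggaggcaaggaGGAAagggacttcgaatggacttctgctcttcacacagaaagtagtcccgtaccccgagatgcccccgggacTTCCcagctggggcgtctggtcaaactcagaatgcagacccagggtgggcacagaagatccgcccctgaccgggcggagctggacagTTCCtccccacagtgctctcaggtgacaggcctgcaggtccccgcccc
RefSeq windows matched 53 of the 77 members by symbol (59 windows). GGAA on either strand was in 98.3% of the member windows and in 96.0% of all 32851 windows of this length, so nearly every promoter holds it. The longer ETS letters CCGGAAGT, which contain GGAA, were in 0 of 59 member windows and in 3.89% of all windows. The box GGGCGG was in 57.6% of member windows and 35.7% of all, CCAAT in 28.8% and 37.4%, and TATAAA in 5.08% and 13.6%, again on either strand. These are counts of letters in fixed windows and carry no test.

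In reference cells the move from 2iL to FA changed 39 of the 76 members tested, 27 higher and 12 lower. A member was called at an adjusted p under 0.05 in edgeR's quasi-likelihood test and a change of at least 2-fold; by the same rule 24% of all 20372 genes tested were called, 13.2% higher and 10.8% lower. Of the 27 that rose, 12 never reached 10 counts in any library in 2iL and were members only through their level in FA, among them Itgb8, Col8a2, Col6a1, Col6a2, Col6a6 and Col1a2. Their rise was built into the membership, so the counts and the median describe the members that passed and are not support for a rise of the set. No member reached 10 counts in 2iL only; 16 of the 77 did so in FA only, which bears on all 4 comparisons of media. The median log2 fold change over the members was 0.44, and over all genes tested it lay within 0.05 of 0 in this and every other comparison below. Among basement membrane members 7 of 20 rose and 2 fell; among the 10 fibrillar collagens 5 rose and 2 fell; and of 20 other collagens tested 10 rose and 3 fell. Of the 23 integrin chains tested 4 rose (Itgb8, Itga9, Itga1 and Itgam) and 4 fell (Itgb3, Itga7, Itgb7 and Itgae).

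Fibronectin, the main adhesive glycoprotein of the interstitial matrix, fell in FA. Fn1 stood at 2096, 1957 and 2039 CPM in reference cells in 2iL and at 455 and 494 CPM in FA, a log2 fold change of -2.10 (SE 0.13, edgeR adjusted p = 1.48e-11). The ranges were far apart. Nid1, the linker between laminin and collagen IV, stood at 598, 518 and 524 CPM in 2iL and at 35.7 and 40.7 CPM in FA (log2 fold change -3.84, SE 0.25, edgeR adjusted p = 4.07e-10). Nid2, its paralog, went from 375, 396 and 380 to 182 and 223 CPM; at -0.92 (SE 0.10) it was under the 2-fold minimum. The laminin chain Lamc1, at -0.97 (SE 0.11), was just under 2-fold.

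Integrin beta3, the partner of alphav and of alphaIIb, had the steepest fall. Itgb3 stood at 45.1, 40.7 and 42.0 CPM in 2iL and at 1.48 and 2.18 CPM in FA (log2 fold change -4.57, SE 0.35, edgeR adjusted p = 4.04e-09). Its partner chain Itgav was at 68.7 and 77.8 CPM in FA and changed by only -0.35 (SE 0.09), and Itgb5, another partner of alphav, by -0.18 (SE 0.16). Col9a2, a chain of the collagen IX that coats cartilage fibrils, fell from 45.2, 28.1 and 28.0 to 3.92 and 5.21 CPM (log2 fold change -2.91, SE 0.30). For Itgb3 and Col9a2 the libraries of the media did not overlap.

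Has2 makes hyaluronan at the plasma membrane, and it was among the members with the largest rise. Its libraries stood at 0.140, 0.119 and 0.139 CPM in 2iL, or 2 to 4 counts, and at 21.4 and 12.6 CPM in FA (log2 fold change 6.93, SE 0.42, edgeR adjusted p = 4.71e-12). Col6a5, an alpha chain of the microfibrillar collagen VI, went from 0.420, 0.238 and 0.0929 CPM to 63.1 and 30.8 CPM (log2 fold change 7.43, SE 0.32). Other collagen VI chains rose with it: Col6a6 by 5.24 (SE 0.47), Col6a4 by 1.08 (SE 0.17), and Col6a2 and Col6a1 from 1 and 2 counts over the group in 2iL, while Col6a3 fell by 1.89 (SE 0.47). The Col6a3 call was lost with the effective length as an offset (-0.79) and without reference replicate 1 in FA (-1.14). Col6a6, Col6a5 and Col6a4 lie next to each other on chromosome 9 with gaps of 27.9 and 28.8 kb, and Col6a2 and Col6a1 lie 85.2 kb apart on chromosome 10.

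The collagen IV pair and a laminin chain rose too. Col4a1 stood at 30.7, 22.7 and 18.2 CPM in 2iL and at 256 and 122 CPM in FA (log2 fold change 2.98, SE 0.51, edgeR adjusted p = 0.000137). Lamb1 went from 45.2, 45.3 and 45.4 to 249 and 204 CPM (2.32, SE 0.25), and Col18a1 from 139, 207 and 182 to 494 and 674 CPM (1.73, SE 0.17). Col4a2 rose by 1.85 (SE 0.50, edgeR adjusted p = 0.00605), but this call was lost without reference replicate 1 in FA, where the log2 fold change was 1.35 (edgeR adjusted p = 0.0961), and also without the 4 libraries with raised chromosome 8 expression, at 1.57 (edgeR adjusted p = 0.121). Lama1 at 0.15 (SE 0.40) and Lama5, the alpha chain of the other laminin of the early embryo, at 0.06 (SE 0.10) did not pass the test.

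Primitive endoderm and its descendants are strong makers of collagen IV and of the laminin trimer with Lama1 and Lamb1, so an 11-gene endoderm marker list was read beside these members (Gata6, Gata4, Sox17, Sox7, Foxa2, Dab2, Pdgfra, Amn, Ttr, Afp and Hnf4a). Its summed level was 14.4 to 22.9 CPM in reference cells in 2iL and 111 to 188 CPM in FA. In 2iL it was 12.8 to 19.6 CPM with RAS deleted, 31.3 to 77.7 with ERF knocked out and 21.5 to 31.8 with both. In FA it was 17.1 to 20.9, 111 to 115 and 25.0 to 36.1 CPM in the same order. Afp was at 0 in all libraries of 4 groups and Ttr in those of 1. A larger share of endoderm-like cells and more RNA per cell cannot be told apart in these bulk libraries, and the part of such cells in the results for Col4a1, Col4a2, Lama1 and Lamb1 was not tested.

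**Figure D1:**
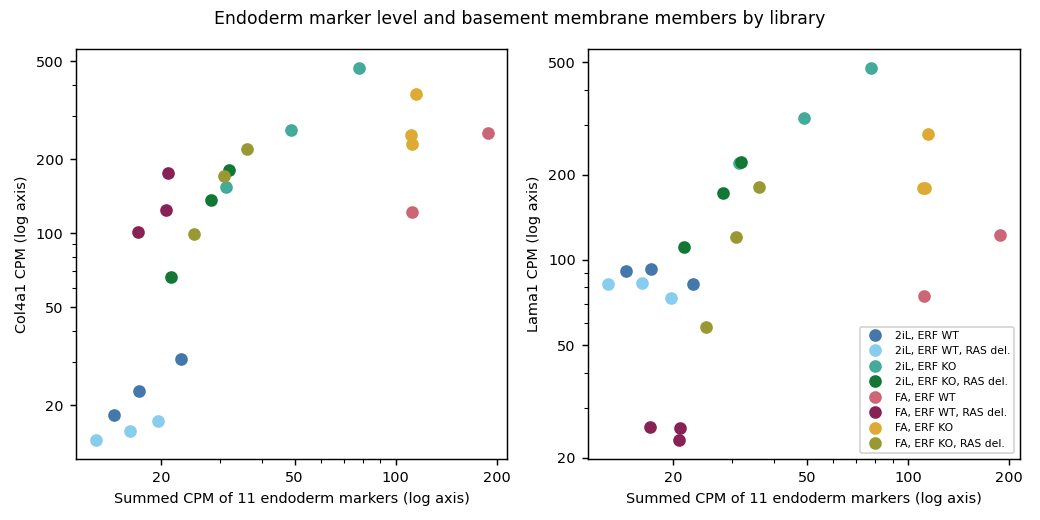
Summed CPM of the 11 endoderm markers (x axis, log) against CPM of Col4a1 (left) and Lama1 (right; y axes, log), 1 point per library, coloured by group. The 3 RAS-deleted ERF wild type libraries in FA lie at 17.1 to 20.9 summed marker CPM with Col4a1 at 101 to 175 CPM and Lama1 at 23.1 to 25.7 CPM.

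On RAS deletion in 2iL, 1 member was called in each ERF genotype in the fit without a replicate block. With ERF wild type 1 of 76 members was called, Col26a1, lower by 1.40 on the log2 scale (SE 0.27, edgeR adjusted p = 0.0041), against 1.2% of all genes, 0.692% higher and 0.506% lower. With ERF knocked out 1 member was called as well, Col9a3, lower by 1.30 (SE 0.28, edgeR adjusted p = 0.0202), against 0.211% of all genes, 0.0687% higher and 0.142% lower. The Col9a3 call was lost with the effective length as an offset (-1.24, edgeR adjusted p = 0.106), without ERF knockout replicate 2 or 3 (-1.29 and -1.25) and without replicate 2 or 3 of the cells that lack both RAS and ERF (-1.39 and -1.14). Replicate numbers paired the libraries of that comparison, and in the fit with the number as a block 5 of 57 members tested were called, 1 higher and 4 lower, against 1.26% of all genes tested in that fit. Col4a1 was lower in each pair, at 154, 263 and 470 CPM with RAS and 66.2, 137 and 180 CPM without it (-1.19, edgeR adjusted p = 0.000238 with the block, against -1.21 and 0.205 without it). Col4a2 (-1.20), Lama1 (-1.01) and Col9a3 (-1.31) were also called lower with the block and Has2 higher (1.65). Lamb1, at 160, 222 and 340 and at 98.4, 138 and 144 CPM, was lower in each pair and not called in either fit (-0.89 with the block). At an unadjusted p under 0.05, without the block, there were 14 members with ERF wild type and 16 with ERF knocked out. The share of all genes at that level is not given here, so these 2 counts say nothing particular to the members. Fn1 and Nid1 changed by -0.04 (SE 0.11) and -0.21 (SE 0.18) with ERF wild type.

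In FA the same deletion changed 26 of 76 members in ERF wild type cells, 11 higher and 15 lower, against 17.3% of all genes tested (8.93% higher, 8.33% lower). For 19 members the response to the medium differed with and without RAS by the interaction test, 10 in the higher direction and 9 in the lower, against 11.9% of all genes (6.6% and 5.3%). Those that were higher without RAS in FA included Itgb3, Col9a2, Nid1, Fn1, Nid2, Col5a1 and Col5a2. Those that were lower included Has2, Col6a5, Lamb1, Lama1 and the leukocyte integrin chain Itgam. All of these comparisons share the 2 reference libraries in FA.

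Integrin beta3 was the clearest case of the first kind. In RAS-deleted cells Itgb3 stood at 40.5, 38.6 and 42.2 CPM in 2iL and at 57.2, 36.3 and 24.3 CPM in FA, with overlapping ranges (log2 fold change -0.05, SE 0.22). Against reference cells in FA it was higher by 4.44 (SE 0.35, edgeR adjusted p = 1.01e-08). Col9a2 moved in opposite directions: with RAS deleted it rose in FA from 29.2, 18.4 and 21.4 to 83.4, 66.1 and 59.4 CPM (1.60, SE 0.22), above every library of every other group, and its level in FA was higher than in reference cells by 3.94 (SE 0.30).

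Fibronectin and the nidogens were also higher without RAS. Fn1 stood at 1449, 1232 and 1085 CPM in RAS-deleted cells in FA, above both reference libraries in FA and below all libraries in 2iL; the difference from reference cells in FA was 1.40 (SE 0.13, edgeR adjusted p = 1.05e-08). Nid1 stood at 318, 203 and 154 CPM, above both reference libraries in FA and below all ERF wild type libraries in 2iL (2.56, SE 0.23, edgeR adjusted p = 7.28e-08). Nid2 stood at 507, 547 and 537 CPM, above all libraries of the other groups (1.39, SE 0.11). Col5a1, a chain that starts collagen fibrils, was higher by 1.33 (SE 0.15), and Col5a2 by 2.07 (SE 0.33). Lamc1 and Itgav were higher by 0.81 (SE 0.11) and 0.90 (SE 0.09), under the 2-fold minimum.

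Has2 was the clearest case of the second kind. Without RAS its libraries in FA had 1, 0 and 5 counts, or 0.0438, 0 and 0.180 CPM, and the difference from reference cells in FA was -7.65 (SE 0.44, edgeR adjusted p = 5.89e-12). Col6a5 stood at 1.01, 0.770 and 0.647 CPM (-5.87, SE 0.27, edgeR adjusted p = 3.54e-13). Itgam, the alpha chain of the Mac-1 receptor, stood at 1.10, 1.26 and 1.37 CPM against 6.66 and 7.43 in reference cells (-2.50, SE 0.23). Itga1, a collagen-binding chain, stood at 0.263, 0.0810 and 0.216 CPM against 4.35 and 3.17 (-4.30, SE 0.40), and Col6a6 was lower by 4.45 (SE 0.42). In each of these genes every RAS-deleted library in FA was below both reference libraries.

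Within the basement membrane some chains were called on RAS deletion in FA and others were not. Lamb1 stood at 59.3, 72.1 and 83.3 CPM without RAS against 249 and 204 CPM with it (-1.66, SE 0.24, edgeR adjusted p = 3.26e-05). Lama1 stood at 25.4, 23.1 and 25.7 CPM against 122 and 74.4 (-1.99, SE 0.41, edgeR adjusted p = 0.000971), a call lost without the 4 libraries with raised chromosome 8 expression (-1.59, edgeR adjusted p = 0.0607). Col4a1 stood at 175, 124 and 101 CPM, overlapped reference cells (-0.51, SE 0.48), and rose in FA without RAS by 3.08 (SE 0.49). It was not called lower, and no test compared its change with that of Lamb1 or Lama1. Col18a1 also rose without RAS, by 1.91 (SE 0.16), to 502, 608 and 701 CPM. The rise of the cartilage collagen Col2a1 was 2.49 (SE 0.29) with RAS and 3.09 (SE 0.27) without it; their difference was not called (0.60, SE 0.40).

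**Figure D2:**
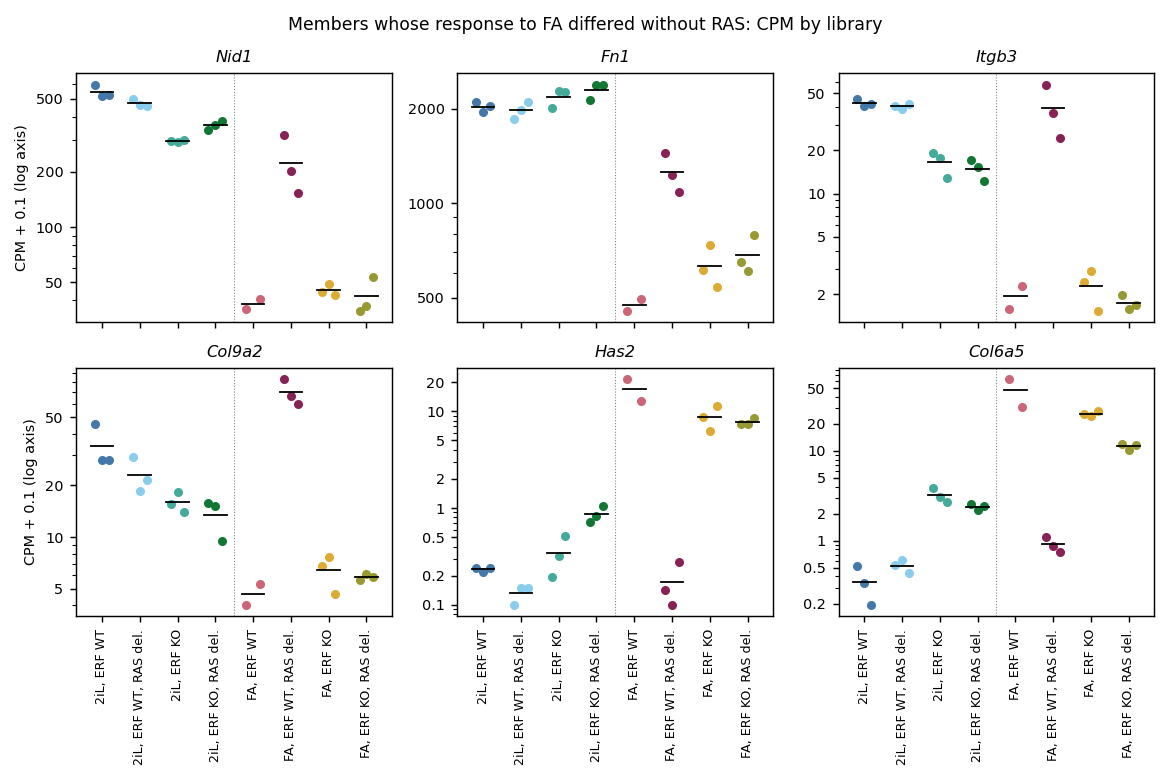
CPM + 0.1 (y axis, log) of 6 members in each library, with a point per library and a black line at the group mean; the first 4 groups are in 2iL and the last 4 in FA. In FA the RAS-deleted ERF wild type libraries stand apart from the other 3 groups in each panel, high for Nid1, Fn1, Itgb3 and Col9a2 and low for Has2 and Col6a5.

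With RAS deleted and ERF wild type, 32 members still changed between the media, 22 higher and 10 lower, against 16.5% of all genes (9.96% higher, 6.59% lower). Of 20 basement membrane members 6 rose and 3 fell, among them Nid1 and Lama1. Nid1 fell there by 1.07 (SE 0.19), and this call was lost without RAS-deleted replicate 3 in FA (-0.86). In these RAS-deleted FA libraries the sum of the stem cell markers, and each naive marker in it, was higher than in reference cells. The summed epiblast markers were lower, with Otx2 the other way, and the summed trophoblast markers higher, as given above. The part of these differences in the members' levels was not tested.

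In 2iL, members already differed between cells with ERF knocked out and ERF wild type cells. With RAS present 25 of 76 members were called, 18 higher and 7 lower, against 9.72% of all genes (5.2% higher, 4.52% lower). With RAS deleted 21 were called, 15 higher and 6 lower, against 13% (5.83% higher, 7.15% lower). Of the 20 basement membrane members 6 rose and 0 fell with RAS present, and 7 rose and 0 fell with RAS deleted. The median over these 20 was 0.55 and 0.59. Of the 23 integrin chains tested, Itga9, Itgb7 and Itgb6 rose with RAS present, and Itgb3, Itga7 and Itga1 fell. Itgb6 is among 4 of the 77 members, with Col4a6, Itga11 and Col14a1, that reached 10 counts only in ERF knockout libraries, so its rise was built into the membership, which bears on the counts of every comparison of ERF genotypes. The reverse, 10 counts with ERF wild type only, held for 0 members. The Itga7 call was lost with the effective length as an offset (-0.59) and without ERF knockout replicate 1 (-0.97), and the Itga1 call with the replicate block (-1.45).

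Col4a1 was the most changed of the abundant members. It stood at 30.7, 22.7 and 18.2 CPM in reference cells in 2iL and at 154, 263 and 470 CPM with ERF knocked out (log2 fold change 3.62, SE 0.49, edgeR adjusted p = 5.02e-05). Col4a2 followed, from 26.3, 20.7 and 15.7 to 91.4, 157 and 285 CPM (3.08, SE 0.48, edgeR adjusted p = 0.000184). The knockout libraries were far apart from each other but all were above all reference libraries. Lamb1 rose from 45.2, 45.3 and 45.4 to 160, 222 and 340 CPM (2.41, SE 0.23), and Lama1 from 81.9, 93.0 and 91.3 to 220, 318 and 477 CPM (1.93, SE 0.37, edgeR adjusted p = 0.00104). The third chain of that laminin, Lamc1, was at 750, 863 and 1017 against 703, 697 and 699 CPM (0.33, SE 0.10), under the 2-fold minimum.

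Replicate 3 of the ERF knockout in 2iL was the highest of its group in each of Col4a1, Col4a2, Lama1 and Lamb1, and also in the endoderm marker sum, at 77.7 CPM against 31.3 and 48.9 in the other 2 libraries. With both ERF and RAS removed the same genes were again higher than in RAS-deleted cells: Col4a1 by 3.01 (SE 0.50), Col4a2 by 2.54 (SE 0.49), Lamb1 by 1.72 (SE 0.23) and Lama1 by 1.08 (SE 0.37, edgeR adjusted p = 0.0279). The Col4a2 call was lost with the replicate block (2.46, edgeR adjusted p = 0.0568). The Lama1 call was lost without the 4 libraries with raised chromosome 8 expression, at 1.04 (edgeR adjusted p = 0.101), and without each of RASERFKO_N replicates 2 and 3 and of RASKO_N replicates 1, 2 and 3 (0.84 to 1.11). Those labels name the doubly deleted and the RAS-deleted group in 2iL. The raised endoderm marker sum in the knockout groups stands beside these values, and its part in them was not tested.

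**Figure D3:**
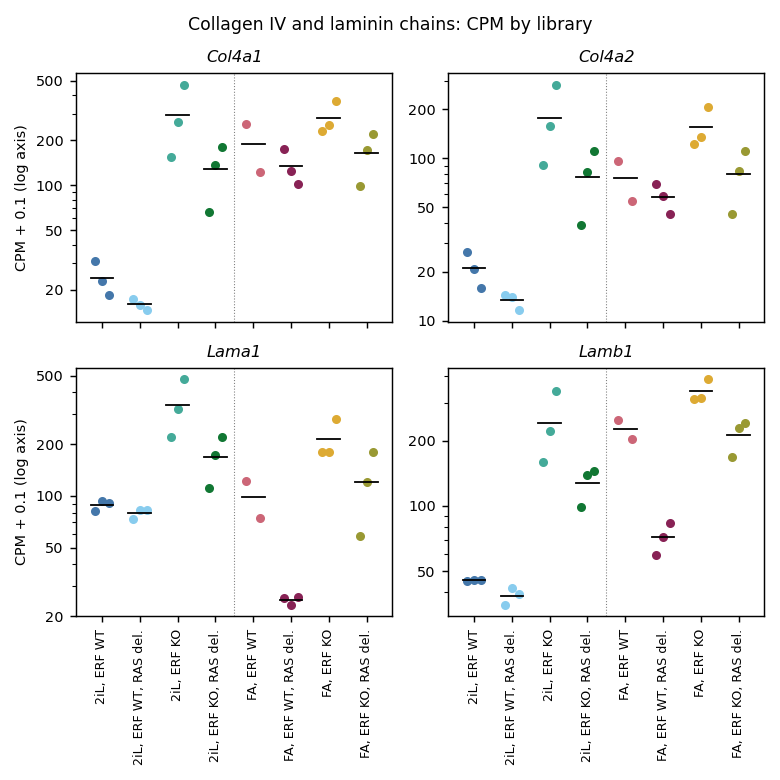
CPM + 0.1 (y axis, log) of Col4a1, Col4a2, Lama1 and Lamb1 by library, with a point per library and a black line at the group mean; the first 4 groups are in 2iL and the last 4 in FA. In 2iL all 6 libraries with ERF knocked out lie above all 6 with ERF wild type for each of the 4 genes.

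Outside the basement membrane, Col6a5 stood in 2iL at 0.420, 0.238 and 0.0929 CPM in reference cells. With ERF knocked out it stood at 3.80, 2.98 and 2.58 CPM (3.52, SE 0.37, edgeR adjusted p = 3.07e-07), and Col6a4 was higher by 1.68 (SE 0.15). The alpha9 integrin chain Itga9, which pairs with beta1 and binds tenascin and osteopontin, rose by 2.41 (SE 0.26). Has2 was at 0.0961, 0.217 and 0.420 CPM (0.82, SE 0.69) with RAS present. With RAS deleted Has2 was at 0.626, 0.728 and 0.944 CPM after ERF knockout and at 2 counts over the group of 3 before it, a ratio of 22.3 with a 95% Poisson interval that starts at 6.17 and covers counting error only. Itgb3 fell from 45.1, 40.7 and 42.0 to 19.1, 17.6 and 12.8 CPM (-1.37, SE 0.23), and Col9a2 by 1.10 (SE 0.23). The fibrillar collagen Col1a1 fell by 1.09 (SE 0.24), a call lost with the effective length as an offset (-0.52, edgeR adjusted p = 0.4), without reference replicate 1 in 2iL (-0.92) and without the 4 libraries with raised chromosome 8 expression (-0.92). Has2 and Col6a5 in these libraries stayed well below their levels in reference cells in FA.

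In FA, ERF knockout with RAS present changed 4 of 76 members, all higher, against 2.36% of all genes (1.58% higher, 0.78% lower). Among them Lamc3, Col11a1 and Col20a1 were higher by 1.06 to 1.55 on the log2 scale. With the effective length as an offset Lamc3 was not called (0.20). This count is not firm, since it ran from 0 without reference replicate 1 in FA to 11 without replicate 2. The medium changed 32 members in the ERF knockout with RAS present, 24 higher and 8 lower, against 19.7% of all genes (12.3% higher, 7.46% lower). With RAS deleted it changed 34, 21 higher and 13 lower, against 24.9% (14.5% higher, 10.4% lower). Col4a1, already high in 2iL, was at 231, 250 and 367 CPM in FA and did not pass the test between media (-0.06, SE 0.43). For 13 members the response to the medium differed between ERF genotypes with RAS present (6 higher, 7 lower), against 4.27% of all genes (2.22% and 2.05%). With RAS deleted it differed for 19 (6 higher, 13 lower), against 11.3% (5.59% and 5.74%).

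The effect of RAS deletion in FA differed with ERF knocked out for some of the members. It changed 16 members there, 6 higher and 10 lower, against 6.88% of all genes (2.81% higher, 4.06% lower); without ERF knockout replicate 2 in FA the count was 10. The test of the difference between the effects of RAS deletion with and without ERF called 21 members (10 higher, 11 lower), against 13.7% of all genes (6.29% and 7.42%). Compared with RAS-deleted ERF wild type cells in FA, cells that lacked ERF as well differed in 23 members, 14 higher and 9 lower, against 16.6% (8.13% higher, 8.48% lower).

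With ERF knocked out, Itgb3 stood in FA at 2.32, 2.78 and 1.43 CPM with RAS and at 1.87, 1.47 and 1.57 CPM without it, and the ranges overlapped (-0.39, SE 0.36). The interaction was -4.84 (SE 0.50, edgeR adjusted p = 1.15e-06). Nid1 stood at 44.2, 48.7 and 42.6 CPM and at 35.1, 37.3 and 53.7 CPM (-0.11, SE 0.19), Fn1 at 613, 737 and 541 and at 647, 607 and 791 CPM (0.11, SE 0.11), and Col9a2 at 6.69, 7.60 and 4.58 and at 5.54, 6.00 and 5.76 CPM (-0.12, SE 0.26). For all 4 the ranges with and without RAS overlapped, and the interactions of Nid1, Fn1 and Col9a2 were -2.67, -1.29 and -4.07.

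Has2 stood at 8.56, 6.12 and 11.2 CPM with RAS and at 7.27, 7.31 and 8.33 CPM without it in ERF knockout cells in FA (-0.18, SE 0.25), and its interaction was 7.47 (SE 0.53, edgeR adjusted p = 8.87e-10). Both groups lay below the 2 reference libraries in FA and far above the RAS-deleted ERF wild type libraries. Col6a5 stood at 25.6, 24.4 and 27.7 with RAS and at 11.9, 10.0 and 11.4 CPM without it, a remaining difference of -1.22 (SE 0.19, edgeR adjusted p = 9.67e-05) beside an interaction of 4.65 (SE 0.33). With the length offset that remaining difference was not called (-1.04, edgeR adjusted p = 0.055). Itgam stood at 7.58, 8.30 and 9.25 and at 4.41, 4.24 and 5.22 CPM, with an interaction of 1.64 (SE 0.30). Itga1 stood at 3.75, 2.69 and 2.67 and at 1.80, 2.45 and 1.78 CPM, and its interaction was 3.71 (SE 0.50).

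For the laminin chains Lamb1 and Lama1 the interaction was not called. Lamb1 stood at 312, 315 and 385 CPM with RAS and at 168, 229 and 241 CPM without it in ERF knockout cells in FA, a difference of -0.67 (SE 0.22) against -1.66 with ERF wild type; the interaction was 0.99 (SE 0.33) and under the 2-fold minimum. Lama1 stood at 180, 179 and 280 and at 57.9, 121 and 180 CPM (-0.84, SE 0.36), and its interaction of 1.16 (SE 0.55, edgeR adjusted p = 0.131) was not called. Against RAS-deleted ERF wild type cells in FA, both were higher with ERF removed, Lama1 by 2.27 (SE 0.39) and Lamb1 by 1.57 (SE 0.23). Col2a1 did not follow the pattern: it was higher without RAS in FA in both ERF genotypes, by 1.01 (SE 0.27) and 1.47 (SE 0.24).

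**Figure D4:**
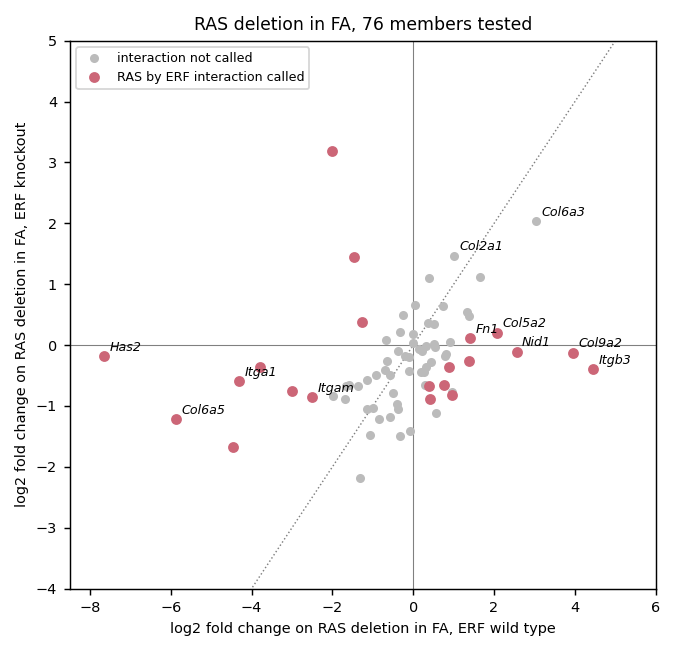
Log2 fold change on RAS deletion in FA of the 76 tested members with ERF wild type (x axis) and with ERF knocked out (y axis), 1 point per gene, red where the interaction was called; the dotted line marks equal effects. Has2 at -7.65 and Itgb3 at 4.44 on the x axis lie at -0.18 and -0.39 on the y axis.

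Several abundant members were called in none of the 12 comparisons. Itgb1, the beta chain shared by most matrix receptors, had log2 fold changes from -0.38 to 0.62. Itga6, its laminin-binding partner, ran from -0.47 to 0.42 and the laminin chain Lama5 from -0.24 to 0.81. Itga5, Itgav, Itgb5, Lamb2 and Sparc were likewise not called in any of the 12. Itga5 was called in 2 of the 4 interactions: the medium by RAS with ERF wild type (1.06, SE 0.20) and the medium by ERF with RAS deleted (-1.10, SE 0.18). The first fell to 0.85 without the 4 libraries with raised chromosome 8 expression, and both fell under 2-fold without certain single libraries (0.90 to 0.97 and -0.93 to -0.98). A change under the rule's 2-fold minimum is not an absence of change: Itgav, for example, was higher by 0.90 without RAS in FA (edgeR adjusted p = 4.74e-08), at 141, 135 and 135 CPM against 68.7 and 77.8. Itga3, the alpha3 chain that binds laminin, was called once, higher in FA with ERF knocked out and RAS present (1.03, SE 0.11), and this call was lost without replicate 1 of that group in FA (0.98).

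**Figure D5:**
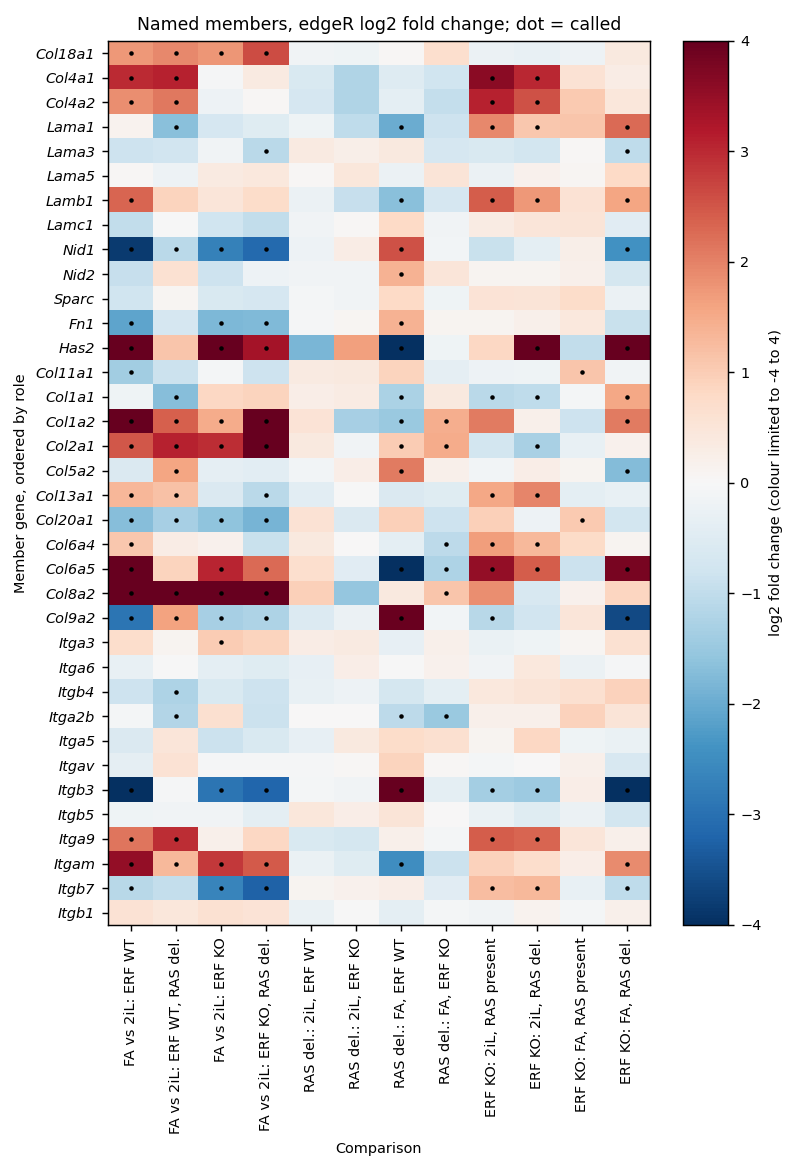
Log2 fold change (colour, limited to -4 to 4) of the named members (rows, by role) in the 12 comparisons (columns); members named after their values were seen, such as Col26a1 and Col9a3, are left out, and a dot marks an adjusted p under 0.05 with at least a 2-fold change. The 2 columns for RAS deletion in 2iL hold no dot for the members shown, and the rows of Itgb1, Itga6, Lama5 and Lamc1 hold none in any column.

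The genes that build and anchor this matrix were read from 4 further lists. Their counts stand beside the shares of all genes called, which were 24% for the medium in reference cells (13.2% higher, 10.8% lower), 17.3% for RAS deletion in FA (8.93% higher, 8.33% lower) and 9.72% for ERF knockout in 2iL with RAS present (5.2% higher, 4.52% lower). Of 21 genes for collagen processing and cross-linking, 6 rose and 3 fell in reference cells in FA, among them the collagen chaperone Serpinh1 (2.02, SE 0.28) and the lysyl oxidase Loxl2 (3.20, SE 0.51). With ERF knocked out in 2iL 3 of the 21 rose and 0 fell: Loxl2 (2.54, SE 0.50), the prolyl hydroxylase P4ha2 (1.83, SE 0.14) and Serpinh1 (1.10, SE 0.26). Without RAS in FA 3 of the 21 were higher and 4 lower than in reference cells, with a list median of 0.13 and Serpinh1 at -1.43 (SE 0.27). Of 23 genes of the integrin adhesion machinery, 3 rose and 4 fell in reference cells in FA, with the tensin Tns1 at -3.48 (SE 0.34) and the parvin Parvb at -2.76 (SE 0.16); without RAS in FA 2 were higher and 2 lower than in reference cells, with Tns1 higher by 2.25 (SE 0.33). The median over that list was -0.08 in reference cells in FA, and its share called was near that of all genes in both comparisons.

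Of 30 other matrix and receptor genes tested, 8 rose and 9 fell in reference cells in FA, where the adhesive protein thrombospondin Thbs1 was higher by 5.22 (SE 0.35) and the elastic fibre protein Fbln5 lower, at -5.34 (SE 0.55). Without RAS in FA 9 were higher and 4 lower, among them the syndecan Sdc4 at 2.54 (SE 0.21) and Fras1, a protein that ties epithelium to the basement membrane, at -1.65 (SE 0.28). Of 14 matrix proteases and inhibitors tested, 7 rose and 3 fell in reference cells in FA. The collagenase Mmp9 rose by 4.04 (SE 0.31), stood at -4.13 (SE 0.31) without RAS in FA, and was higher by 2.81 (SE 0.30) once ERF was removed as well.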

How the data were processed

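Per the labels, total RNA depleted of ribosomal RNA was made into strand-specific libraries and read as 75 bp pairs. Per the submitters' processing notes the authors used bcl2fastq 2.20.0, fastp 0.20.0 and Salmon with mm10; the version of Salmon and the transcriptome are not given in the sources used here. The authors deposited estimated counts per gene symbol, TPM and effective lengths for each library, and a matrix of counts that equals the rounded estimated counts (0 cells differ). Salmon shares reads among similar transcripts, so close paralogs are less certain. Gm26917 took 17.6 to 27.9% of counts.

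The rounded estimated counts were tested in edgeR 4.0.16 in R 4.3.3, with filterByExpr, TMM scaling and a robust quasi-likelihood fit of 23 libraries with a coefficient per group. Of 53607 rows 20372 were tested, adjusted together by Benjamini-Hochberg, and called at an adjusted p under 0.05 and at least 2-fold, in 12 comparisons of 1 factor and 4 interactions. Replicates of a group were compared by chi-square per degree of freedom (3.04 to 44.9 over 22 pairs). The standard error is the absolute log2 fold change over the square root of F. A group at 1 to 3 counts in all is given as a ratio with a Poisson interval. Such an interval covers counting error only, as the reads carry no molecular identifiers. The script was tested on simulated data.

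Members, lists and the rule for named genes were chosen with earlier results of these data known. Named were 20 genes chosen by role, all of them members except Col3a1. In each comparison up to 10 called members with the largest fold change and at least 5 CPM in the higher group were named as well. Of the 4 further lists, up to 4 each were named. The members Col6a1, Col6a2, Col6a3, Col6a6, Col5a1, Col9a3, Lamb2, Col26a1, Itga1, Itga7, Itgae, Itgb6, Itgb8, Lamc3, Col4a6, Itga11 and Col14a1 were named after their values were seen. Alternatives were another scaling, no filter, an effective length offset, DESeq2 1.42.0, only the compared groups, the replicate block, adjusted p alone, and each library left out. Leaving out 4 libraries with raised chromosome 8 expression was chosen after seeing the data. Replicate numbers paired the libraries (every pair's correlation of deviations over 0.1) in the medium comparisons other than that of the reference line and in RAS deletion in 2iL, with correlations of 0.162 to 0.522. Results for some genes are not given.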

Additional observations from a re-analysis of the deposited data

Results flagged for a closer look

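The results below are differences between 2 effects that passed the interaction test of edgeR (adjusted p under 0.05 and at least 2-fold). Each value is the difference of 2 log2 fold changes.

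The effect of RAS deletion in FA, with ERF knocked out minus with ERF wild type, was called for 21 members. It was 7.47 for Has2, 4.65 for Col6a5 and 1.64 for Itgam, genes whose loss of RNA without RAS was smaller with ERF knocked out. It was -4.84 for Itgb3, -4.07 for Col9a2, -2.67 for Nid1, -1.87 for Col5a2, -1.78 for Col20a1 and -1.29 for Fn1.

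The effect of the medium with ERF wild type, RAS deleted minus RAS present, was called for 19 members. It was -6.53 for Col6a5, -5.83 for Has2, -2.24 for Itgam and -1.83 for Lama1. It was 4.52 for Itgb3, 4.50 for Col9a2, 2.77 for Nid1, 2.18 for Col5a2 and 1.54 for Nid2. The Has2 value rests on 2 counts over the RAS-deleted group in 2iL and has an SE of 1.94. Its call was lost with only the compared groups (-5.81), with the replicate block (-7.28) and without RAS-deleted replicate 2 or 3 in 2iL (-5.48 and -5.51). The Lama1 value was lost without reference replicate 1 in FA (-1.41) and without the 4 libraries with raised chromosome 8 expression (-1.44).

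The effect of the medium with RAS present, ERF knockout minus ERF wild type, was called for 13 members. It was -4.38 for Col6a5, -3.04 for Col4a1, -1.93 for Col13a1, -1.92 for Itga9, -1.83 for Lamb1 and -1.53 for Itgb7. It was 1.64 for Itgb3, 1.57 for Col9a2, 1.31 for Col11a1 and 1.13 for Nid1. Without reference replicate 1 in FA the values of Col4a1, Itgb3, Col9a2, Col11a1 and Nid1 were no longer called (-2.39, 1.37, 1.38, 1.36 and 1.05), and 7 members were called. The same 5 values were lost without the 4 libraries with raised chromosome 8 expression (-2.63, 1.33, 1.11, 1.11 and 0.98 for Col4a1, Itgb3, Col9a2, Col11a1 and Nid1). Col4a1 was also lost with the replicate block (-2.61). Itgb3 was also lost without each of 5 more libraries (1.43 to 1.65), and Col11a1 with the length offset (1.32), the block (1.52) and without each of 3 more libraries (1.06 to 1.28).

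The effect of the medium with RAS deleted, ERF knockout minus ERF wild type, was called for 19 members. It was -3.12 for Itgb3, -2.82 for Col9a2, -2.72 for Col4a1, -2.30 for Itgb7, -2.25 for Col13a1, -2.15 for Itga9, -2.07 for Col4a2, -2.03 for Nid1 and -2.02 for Col5a2. The Col4a2 call was lost without any 1 of 6 libraries of these groups (-1.72 to -2.10) and without the 4 libraries with raised chromosome 8 expression (-1.98). For Itgb3, Col9a2 and Nid1 the sign is the reverse of that with RAS present.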

How the results depend on the processing

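Of 128 alternative counts of members called, other than those leaving out 1 library, 18 moved by more than 1.5 times. With the adjusted p alone, counts were 57 for the medium with ERF knocked out and RAS deleted, 3 and 2 for RAS deletion in 2iL with ERF wild type and knockout, 42 and 29 for RAS deletion in FA, 35 for ERF knockout in 2iL with RAS deleted, and 15 and 39 for ERF knockout in FA with RAS present and deleted. The shares of all genes under that rule are not given here, so these counts show only how the number depends on the rule. For RAS deletion in 2iL with ERF knocked out, counts were 5 without the filter, 0 with the length offset, 2 with DESeq2 and 5 with the replicate block. The length offset gave 10 for RAS deletion in FA with ERF knocked out. For ERF knockout in FA with RAS present, counts were 9 without the filter, 1 with the length offset and 1 with only the compared groups. For the medium by ERF interaction with RAS present, the replicate block gave 8 and leaving out the 4 libraries with raised chromosome 8 expression 8. In the comparisons where replicate numbers paired the libraries, the block moved no other count by more than 1.5 times and ended no call of a named member.

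Leaving out 1 library gave 34 to 37, 27 to 34, 30 to 31 and 30 to 36 members for the 4 medium comparisons in the order reported by ERF and then RAS, 1 and 0 to 2 for RAS deletion in 2iL, 25 to 26 and 10 to 15 in FA, 20 to 24 and 18 to 22 for ERF knockout in 2iL, 0 to 11 and 21 to 24 in FA, and 18 to 26, 16 to 20, 7 to 14 and 14 to 20 for the interactions. Of 153 values of named members, 0 reversed under 2218 alternatives and 38 lost their call under at least 1, none of them under DESeq2, the other scaling or no filter. These values were picked as called in the main fit, and the alternatives reuse the same libraries, so a reversal was unlikely from the start. The median of all genes was within 0.0495 of 0 under every setting. Members at a few counts per library are limited by depth.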
